A study of Mus musculus with 8 samples.

Results

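The sites described are called adenines that lay between cytosine and thymine, chosen by their deposited 41-base context: the called adenine was base 21, with C at base 20 and T at base 22. They are called CAT sites here. CAT sites made up 1730 of the 17418 called adenines in 4 lists and lay at 1690 distinct bases, a base being a position on a strand. DNA bound to the histone variant H2A.X in mouse TT2 embryonic stem cells was recovered by native chromatin immunoprecipitation, which uses no crosslinking, with a customized H2A.X antibody. Single-molecule real-time sequencing was run on the long (L) and the short (S) part of this DNA. The groups were Alkbh1 knockout cells, L part (KO L), wild-type cells, L part (WT L), knockout cells, S part (KO S), and wild-type cells, S part (WT S). The cells of every group had the same C57BL6 x CBA background, were at passage 5 to 10 and grew without feeder cells. The sources used here do not say whether the knockout line was 1 clone. Each group had 2 replicate samples, which share 1 list, so no difference between groups has a replicate check.

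N6-methyladenine is a modification of adenine that is widespread in bacterial DNA, where methyltransferases place it at short motifs, many of them palindromes that carry the mark on both strands. ALKBH1 is a dioxygenase of the AlkB family that has been described as a demethylase of this base. In the sequencing used, modified bases can make the polymerase pause. The IPD ratio (IPD for inter-pulse duration) is the pause at a base over the pause predicted for unmodified DNA. The tetramer CATG is a palindrome, so the other strand carries an adenine of the same context at the next base.

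The first contexts printed are 4 of the 7 CAT bases called in all 4 lists, those of highest score summed over the lists. The other 3 have the same 41 letters as the fourth. All 4 are satellite-like, as defined below, and they carry the results on recurrence. Each is read 5′ to 3′ on the strand of the call, with build mm10 coordinates of the context and with C, the called adenine and T in capitals.
chr14:19417706-19417746, minus strand: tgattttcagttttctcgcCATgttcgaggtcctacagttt
chr9:35305220-35305260, minus strand: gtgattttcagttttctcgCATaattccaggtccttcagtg
chr14:19417208-19417248, minus strand: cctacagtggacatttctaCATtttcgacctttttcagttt
chrUn_JH584304:79585-79625, plus strand: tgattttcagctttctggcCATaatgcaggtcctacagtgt

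The next contexts show CAT sites in other DNA. They are the site of highest score in KO L, WT L, KO S and WT S, in that order, outside the dense windows and the satellite-like contexts defined below. The last is the TCATA site of highest score outside dense windows.
chr1:89542610-89542650, plus strand: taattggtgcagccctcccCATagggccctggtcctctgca
chr8:106362537-106362577, plus strand: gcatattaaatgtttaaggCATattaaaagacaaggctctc
chr10:84413136-84413176, minus strand: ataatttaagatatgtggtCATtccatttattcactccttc
chr17:80336516-80336556, minus strand: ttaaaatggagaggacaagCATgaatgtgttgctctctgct
chrX:36467376-36467416, minus strand: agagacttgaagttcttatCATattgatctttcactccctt

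CAT sites were 255 of 3044 called adenines in KO L (8.38%, exact Clopper-Pearson 95% interval 7.42 to 9.42%) and 403 of 3862 in WT L (10.4%, 9.49 to 11.4%). They were 317 of 3370 in KO S (9.41%, 8.44 to 10.4%) and 755 of 7142 in WT S (10.6%, 9.87 to 11.3%). Of the adenines at bases 2 to 40 of these contexts that were not the called base, 5.16% in KO L, 4.97% in WT L, 5.45% in KO S and 5.00% in WT S lay in CAT on the same strand. The share of called sites over this background was 1.62 in KO L, 2.10 in WT L, 1.72 in KO S and 2.11 in WT S, the highest of the 16 possible contexts in each list. The context was chosen on this excess, so the ratios describe the choice and support nothing. The plus and minus strands held 148 and 107 CAT sites in KO L, 213 and 190 in WT L, 178 and 139 in KO S, and 378 and 377 in WT S.

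CAT took a smaller share of calls in KO L than in WT L, and in the S part the difference was within counting error. In the L part the difference, KO minus WT, was -2.06 percentage points, with a Newcombe 95% interval of -3.43 to -0.67. In the S part it was -1.16 points (-2.36 to 0.08), an interval that holds 0. The KO minus WT difference in S differed from that in L by 0.89 points (-0.94 to 2.74). S minus L was 1.03 points in KO cells (-0.37 to 2.42) and 0.14 points in WT cells (-1.08 to 1.32). These intervals cover counting error, treat sites as independent and leave out the spread between replicates. On the plus strand alone the L difference was -1.25 points (-3.30 to 0.84), with an interval that holds 0, and on the minus strand alone it was -2.83 points (-4.66 to -0.98). The L interval also held 0 at coverage of 25 or more (-4.95 to 1.23) and at an identification score, defined below, of 20 or more (-5.57 to 3.33). In the S part the plus strand gave 0.06 points (-1.74 to 1.96) and the minus strand -2.29 points (-3.85 to -0.64). Outside dense windows, the share was lower in KO L than in WT L on 15 of 21 chromosomes and higher on 6. It was lower in KO S than in WT S on 14, higher on 6, Y among them, and equal on X.

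Split by the bases on either side, the called CAT sites were not spread like CAT among the other adenines. At base 23, adenine followed in 35.7% of CAT sites in KO L, 33.3% in WT L, 38.2% in KO S and 37.0% in WT S, against 22.6%, 24.01%, 23.3% and 25.5% of background CAT in the same order. Guanine followed in 22.7%, 19.4%, 17.0% and 18.01% of CAT sites, against 27.8%, 26.6%, 28.8% and 26.2% of background CAT. CATG, the palindrome, was used at 0.82 times background in KO L (58 sites, 0.64 to 1.02), 0.73 in WT L (78 sites, 0.59 to 0.89), 0.59 in KO S (54 sites, 0.45 to 0.75) and 0.69 in WT S (136 sites, 0.59 to 0.80), so the interval held 1 in KO L and lay below 1 in the other lists. Without dense windows it was 0.94 in KO L (0.74 to 1.18). These intervals leave out the error of the background share. At base 19, cytosine stood at 1.18 to 1.69 times and adenine at 0.53 to 0.80 times its background share, over the 4 lists. A background adenine beside the called base cannot lie in CAT, as its neighbour is an adenine. A background adenine a single base further out can have the called adenine as its own outer base. This adds to ACAT and CATA in the background. A background of only adenines 3 or more bases away was an alternative chosen after seeing the data. With it the CAT ratio was 1.53 in KO L, 1.96 in WT L, 1.61 in KO S and 1.97 in WT S. CATG was then at 0.78 times background in KO L (0.61 to 0.97), 0.70 in WT L, 0.57 in KO S and 0.66 in WT S. In KO L the CATG interval held 1 in 10 of the 12 alternatives run. The other flanks were not recomputed with this background.

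**Figure D1:**
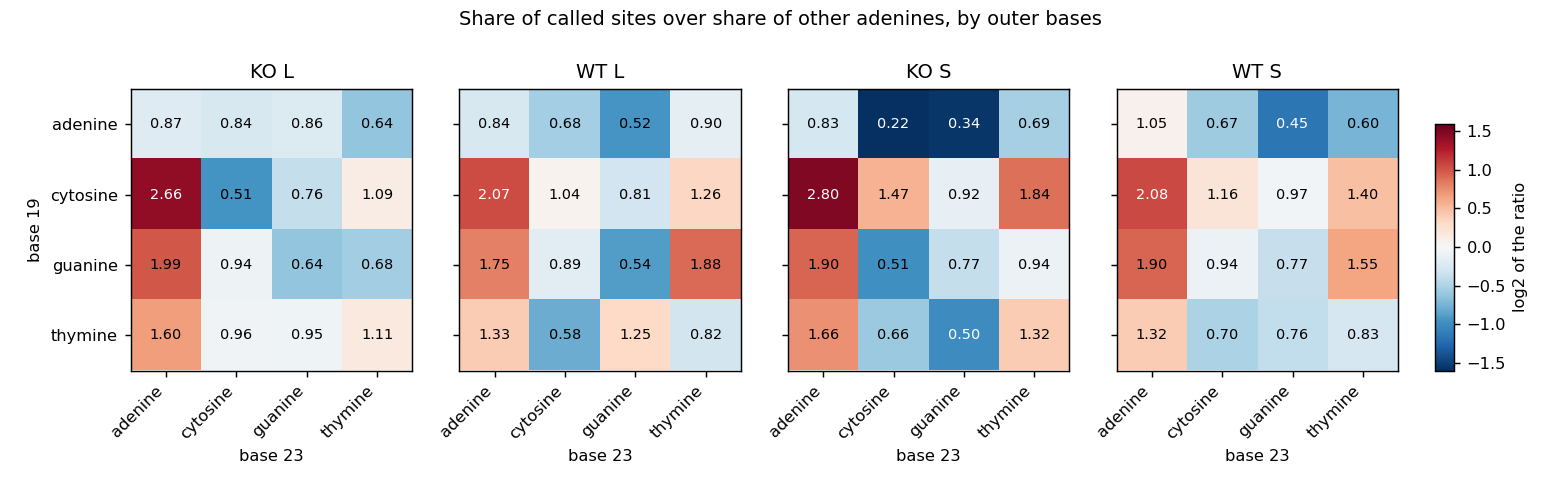
Ratio of the share of called CAT sites to the share of background CAT for each pair of base 19 (rows) and base 23 (columns), 1 panel per list, coloured by log2 of the ratio. Cytosine before and adenine after (CCATA) has the highest ratio in every panel, between 2.07 and 2.80.

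By the ratio alone, 4 of the 16 contexts of 5 letters were above background in all 4 lists and 7 were below it in all 4. The other 5 were above it in some lists and below it in others. Several of these shares were within counting error of background. Examples are CCATT in KO L (3.03 to 9.04%, background 5.04%) and CCATG in WT S (3.92 to 7.30%, background 5.61%). The interval of CCATA lay above its background share in every list. CCATA led in every list, with 32 sites in KO L (12.5% of CAT sites, 2.66 times background), 42 in WT L (10.4%, 2.07 times), 46 in KO S (14.5%, 2.80 times) and 73 in WT S (9.67%, 2.08 times). GCATA followed at 1.75 to 1.99 times, TCATA at 1.32 to 1.66 times and CCATT at 1.09 to 1.84 times background. ACATG had the lowest ratio over the 4 lists together, at 0.86 in KO L, 0.52 in WT L, 0.34 in KO S and 0.45 in WT S. ACATC was at 0.84, 0.68, 0.22 and 0.67 times background in the same order.

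Few of these contexts differed between genotypes beyond counting error. In the L part, GCATT made up 3.14% of CAT sites in KO (8 sites) and 7.94% in WT (32 sites), a difference of -4.80 points (-8.22 to -1.10). In the S part, CCATA made up 14.5% in KO and 9.67% in WT, a difference of 4.84 points (0.68 to 9.55), and ACATC made up 1.58% in KO and 3.97% in WT, a difference of -2.40 points (-4.27 to -0.02). The intervals of the other 15 contexts in L and the other 14 in S held 0, and none of the intervals was adjusted for the number of contexts. GCATT in S (3.79% in KO and 6.49% in WT) and CCATA in L (12.5% in KO and 10.4% in WT) had intervals that held 0. By single flanking base, CATT was lower in KO L (23.5%) than in WT L (31.5%), by -7.98 points (-14.7 to -0.92). In S, CCAT was higher in KO (37.5%) than in WT (29.8%), by 7.74 points (1.59 to 14.03), and ACAT was lower in KO (18.9%) than in WT (25.2%), by -6.24 points (-11.3 to -0.70).

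The modified fraction is the caller's estimate of the share of molecules that carry the modification, given only at coverage of 11 or more. It was higher at CAT sites than at other called adenines in every list. The median was 82.5% at CAT sites and 59.9% at other sites in KO L, from 110 CAT sites with a value. It was 88.4% and 63.8% in WT L (170 CAT sites), 97.5% and 68.55% in KO S (159 CAT sites), and 92.1% and 65.1% in WT S (469 CAT sites). The differences, CAT minus other, were 22.6 points in KO L (12.6 to 33.2), 24.6 in WT L (17.7 to 33.5), 28.95 in KO S (22.5 to 32.5) and 27.0 in WT S (23.1 to 32.4), with intervals built from order statistics of both medians. A fraction of 100% was given at 36 CAT sites in KO L (32.7% of those with a value), 61 in WT L (35.9%), 71 in KO S (44.7%) and 192 in WT S (40.9%). Among other sites it was given at 13.1% in KO L, 15.1% in WT L, 16.4% in KO S and 15.8% in WT S.

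The median fraction of CAT sites ranked 3 of 16 contexts in KO L, 1 in WT L, 2 in KO S and 1 in WT S. GAT sites were above them in KO L, at 88.6%, and in KO S, at 97.6%, and CAC sites were above them in KO L, at 82.85%. Against other sites before thymine alone, CAT sites were higher by 7.60 points in KO L (-4.44 to 19.4), 8.30 in WT L (-0.35 to 18.4), 13.9 in KO S (6.97 to 19.05) and 9.40 in WT S (4.65 to 16.1). The interval therefore held 0 in both L lists and lay above 0 in both S lists. Seen from the other side, CAT made up 3.86% of sites with a fraction under 25% in KO L, 3.48% in WT L, 1.39% in KO S and 4.84% in WT S. At a fraction of 100% it made up 16%, 18.3%, 19.7% and 21.3% of sites in the same order.

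**Figure D2:**
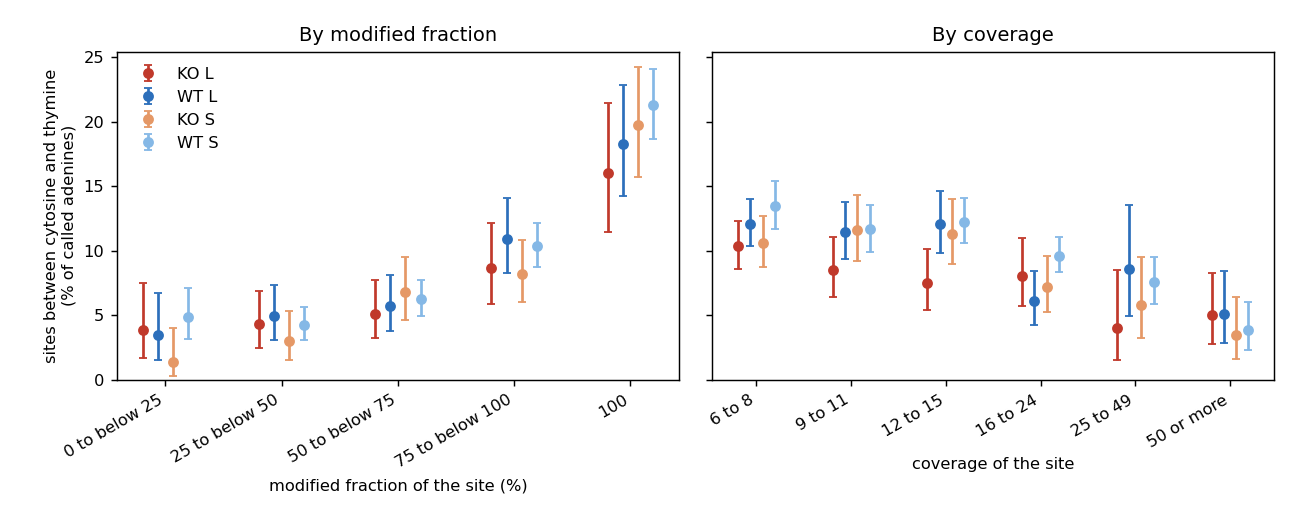
CAT sites as a percentage of called adenines in bins of modified fraction (left) and of coverage (right), with exact 95% intervals, for KO L, WT L, KO S and WT S. The share reaches 16 to 21.3% at a fraction of 100% and is 3.42 to 5.11% at coverage of 50 or more.

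Coverage moved with both measures. CAT sites had a median coverage of 10 in KO L, 10 in WT L, 11 in KO S and 13 in WT S, against 11, 11, 12 and 14 at other sites. CAT made up 10.3% of sites with coverage of 6 to 8 in KO L, 12.1% in WT L, 10.6% in KO S and 13.5% in WT S. At coverage of 50 or more it made up 5.00%, 5.11%, 3.42% and 3.84% in the same order. With only sites of coverage 25 or more, the share over background was 1.21 in KO L (20 CAT sites), 1.499 in WT L (30), 1.01 in KO S (23) and 1.42 in WT S (83). The intervals in KO L (0.74 to 1.84) and KO S (0.64 to 1.49) held 1.

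The fraction was also compared within classes of coverage. At coverage of 11 to 15 the median fraction was 99.7% at CAT sites and 79.8% at other sites in KO L, 97.8% and 80.5% in WT L, 100% and 88.0% in KO S, and 98.6% and 83.7% in WT S. The median coverage of CAT and other sites in this class was 12 or 13 in each list. At coverage of 25 to 49 the median fraction was 66.1% and 47.2% in KO L (6 CAT sites), 48.2% and 44.9% in WT L (16), 70.75% and 46.35% in KO S (14), and 76.7% and 46.4% in WT S (65). The median of CAT sites was the higher one in all 4 coverage classes of all 4 lists. The intervals of the 2 medians did not meet in any list at coverage of 11 to 15 and in WT S at 16 to 24 and 25 to 49, and met in the other 10 of the 16 cases.

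**Figure D3:**
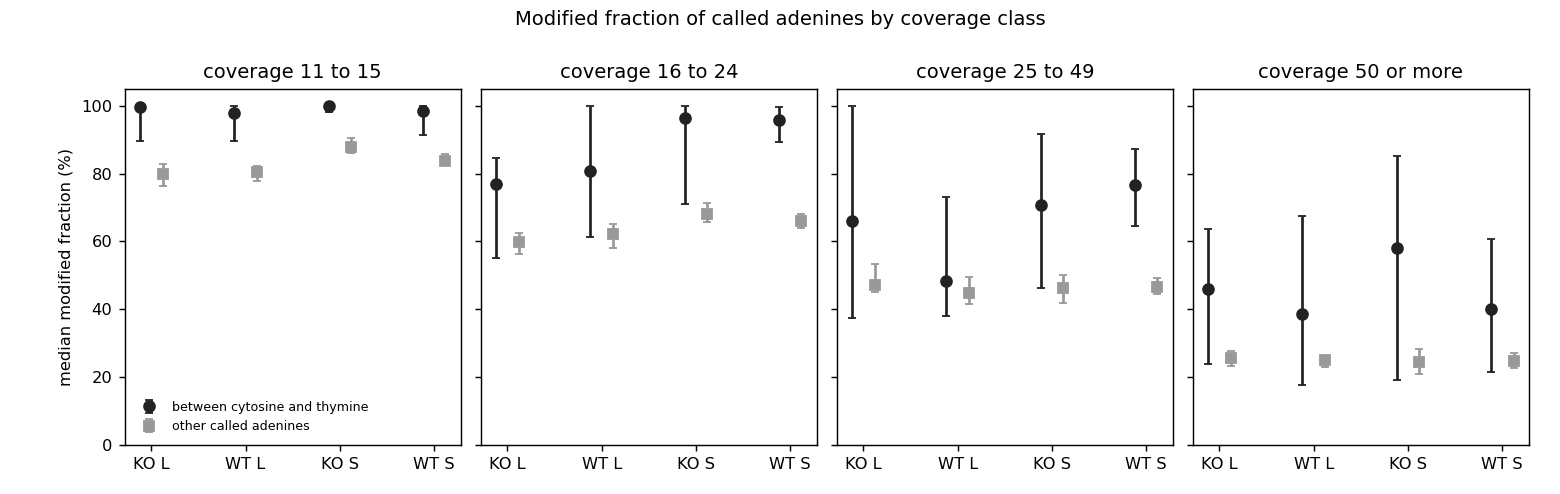
Median modified fraction of CAT sites (circles) and other called adenines (squares) in 4 coverage classes, with 95% order-statistic intervals, for KO L, WT L, KO S and WT S. The medians of CAT sites lie higher in every class, for example 76.7% and 46.4% in WT S at coverage of 25 to 49, with wide intervals above coverage of 24.

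By the base that followed, CATA and CATT differed in both S lists. At CATA sites the median was 83.5% in KO L, 100% in WT L, 100% in KO S and 100% in WT S, and a fraction of 100% was given at 34.8%, 50.8%, 56.7% and 56.1% of them. At CATT sites the median was 84.7% in KO L, 81.7% in WT L, 82.35% in KO S and 81.4% in WT S. In WT S the intervals of these medians, 99.6 to 100% for CATA and 71.9 to 87.3% for CATT, did not meet. In KO S they were 97.5 to 100% and 75.3 to 96.1% and did not meet either. They met in both L lists. In WT S alone the CATA interval also lay above those of CATC (76.7 to 97.3%) and CATG (77.5 to 99.4%). At CATG sites the median was 89.25% in KO L, 84.4% in WT L, 100% in KO S and 88.8% in WT S, and at CATC sites it was 70.2%, 84.3%, 91.7% and 88.7% in the same order. No following base was thus the highest in every list. Between genotypes the median fraction of CAT sites differed by -5.90 points in the L part (-18.9 to 6.28), KO minus WT. In the S part it differed by 5.40 points (-2.39 to 9.78), and both intervals held 0. S minus L was 15 points in KO (3.18 to 25.1) and 3.70 points in WT (-5.53 to 12.02). Other sites also had the higher median in S, at 59.9% in KO L and 68.55% in KO S. In wild-type cells their medians were 63.8% in L and 65.1% in S. Whether the difference between parts was particular to CAT sites was not tested.

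The IPD ratio of CAT sites was close to that of other sites. Its median was 2.66 at CAT sites and 2.57 at other sites in KO L, 2.5 and 2.57 in WT L, 2.70 and 2.66 in KO S, and 2.65 and 2.55 in WT S. CAT minus other was 0.09 in KO L (-0.10 to 0.26), -0.07 in WT L (-0.14 to 0.03), 0.04 in KO S (-0.09 to 0.21) and 0.10 in WT S (0.01 to 0.20), so the interval left out 0 in WT S alone. Without dense windows the WT S interval held 0 as well (0.05, -0.03 to 0.15). Against other sites before thymine alone, the difference was 0.16 in KO L (-0.05 to 0.35) and 0.01 in WT L (-0.08 to 0.12). It was 0.155 in KO S (-0.0003 to 0.34) and 0.18 in WT S (0.08 to 0.28), where alone the interval left out 0. An IPD ratio of 6 or more was found at 20 CAT sites in KO L (7.84%, 4.86 to 11.9%), 22 in WT L (5.46%, 3.45 to 8.15%), 27 in KO S (8.52%, 5.69 to 12.2%) and 65 in WT S (8.61%, 6.71 to 10.8%). At other sites it was found at 3.91% in KO L, 3.99% in WT L, 3.996% in KO S and 4.40% in WT S. KO minus WT of the median at CAT sites was 0.16 in the L part (-0.05 to 0.34). In the S part it was 0.05 (-0.11 to 0.24), and both intervals held 0. S minus L of this median was 0.04 in KO (-0.17 to 0.29) and 0.15 in WT (0.03 to 0.27).

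CATG sites, the least used by base 23 relative to background in 3 of the 4 lists, had the highest median IPD ratio of the 4 following bases in every list. The medians were 3.21 at CATG and 2.49 at other CAT sites in KO L, 2.755 and 2.47 in WT L, 3.365 and 2.65 in KO S, and 3.525 and 2.57 in WT S. The differences were 0.72 in KO L (0.30 to 1.46), 0.285 in WT L (-0.09 to 0.68), 0.715 in KO S (0.20 to 1.77) and 0.955 in WT S (0.63 to 1.51). A guanine at base 23 went with a higher ratio at other sites before thymine too, by 0.41 in KO L, 0.385 in WT L, 0.59 in KO S and 0.65 in WT S. The single site of highest score outside the dense windows and satellite-like contexts was of this kind: the WT S site at position 80336536 on chromosome 17, in the gene Arhgef33, had a score of 87, coverage of 30, an IPD ratio of 8.71 and a fraction of 100%.

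A second score, the identification score, states how well the kinetics fit N6-methyladenine in particular, on the caller's own scale. It reached 20 at 48 CAT sites in KO L (18.8%, 14.2 to 24.2%), 60 in WT L (14.9%, 11.6 to 18.7%), 46 in KO S (14.5%, 10.8 to 18.9%) and 142 in WT S (18.8%, 16.1 to 21.8%). Over all called adenines it reached 20 at 13.2% in KO L, 11.9% in WT L, 14.5% in KO S and 16.2% in WT S. The interval of the CAT share left out that of all sites, CAT sites included, in KO L alone and held it in WT L, KO S and WT S. At other sites the score reached 20 at 12.7% in KO L, 11.5% in WT L, 14.5% in KO S and 15.9% in WT S. The CAT interval left out this share in KO L, WT L and WT S and held it in KO S. Outside satellite-like contexts CAT and other sites had 16.2% and 8.05% in KO L, and 13.2% and 8.41% in WT L. There they had 12.5% and 11.4% in KO S, and 17.96% and 12.8% in WT S. Adenine at base 19 gave the highest share in every list: 25.7% of ACAT sites in KO L, 23.1% in WT L, 18.3% in KO S and 26.3% in WT S. Guanine at base 19 gave the lowest, with 7.14% of GCAT sites in KO L, 5.81% in WT L, 8.77% in KO S and 8.88% in WT S. The intervals of ACAT and GCAT did not meet in WT L (15.6 to 32.2% and 1.91 to 13.0%) or WT S (20.2 to 33.2% and 5.05 to 14.2%). ACAT, the flank least used relative to background, was therefore the one whose called sites reached this score most often.

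CAT bases rarely recurred between lists. Of the 1690 distinct bases, 1668 were called in 1 list, 11 in 2, 4 in 3 and 7 in all 4. Of CAT sites in KO L, 11 of 255 (4.31%, 2.17 to 7.59%) were also called in WT L, against 4.63% of all KO L sites. In the S part 8 of 317 CAT sites of KO S (2.52%, 1.10 to 4.91%) were also called in WT S, against 4.78% of all KO S sites. Between parts, 10 of 317 CAT sites of KO S (3.15%) were also called in KO L, against 3.56% of all sites, and 15 of 755 CAT sites of WT S (1.99%) were also called in WT L, against 2.38% of all sites. Outside windows of 100 kb with 10 or more sites of a list, called dense windows, 2 of 236 CAT sites of KO L (0.85%) were shared with WT L, against 0.26% of all sites, and 1 of 298 of KO S (0.34%) with WT S, against 0.30%. There 2 of 298 CAT sites of KO S (0.67%) were shared with KO L, against 0.23% of all sites, and 1 of 720 of WT S (0.14%) with WT L, against 0.091%. All of these shared CAT sites outside dense windows lay at 2 bases of chromosome 9, positions 35305240 and 35305297. Both are satellite-like, as defined below, and the same bases count in several comparisons. The share at CAT sites was the lower one over all sites and the higher one outside dense windows. Its interval held the share of all sites in each of the 8 cases.

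Satellite-like contexts made up a smaller share of CAT sites than of other sites in each list. Such contexts share 3 or more 12-base words with words found in at least 2 dense windows. They made up 7.84% of CAT sites and 11.8% of other sites in KO L, 6.20% and 9.89% in WT L, 6.31% and 11.1% in KO S, and 4.11% and 8.22% in WT S. The intervals of the 2 shares met in KO L and WT L and did not meet in KO S and WT S. Of the CAT sites shared within a part or a genotype, all were satellite-like in S (8 of 8) and between the KO lists (10 of 10), 10 of 11 in L and 14 of 15 between the WT lists. Reads of near-identical copies may not be separable, so a repeated context may stand for any of its copies.

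Of the 11 CAT bases called in 3 or 4 lists, position 19417726 on chromosome 14, the first context printed above, had the highest score in every list. Its IPD ratio was 3.25 in KO L and 3.16 in WT L, 3.46 in KO S and 3.50 in WT S, at coverage of 407, 384, 391 and 569. Its modified fraction was 85% in KO L (the caller's bounds 76.1 to 94.0%), 81.9% in WT L (72.2 to 90.0%), 85.2% in KO S (77.0 to 94.6%) and 91.8% in WT S (84.4 to 97.8%). The bounds overlap in all 4 lists, so the genotypes were not told apart at this base. At position 35305240 on chromosome 9, in Gm33838, the fraction was 40% in KO L (25.7 to 54.9%) and 47.4% in WT L (32.2 to 62.0%), and 68.7% in KO S (59.5 to 78.8%) and 67.3% in WT S (58.5 to 76.0%). Here the S lists were higher than KO L beyond the caller's bounds, and KO and WT overlapped in both parts. Position 19417228 on chromosome 14 had a low fraction in every list, 13.6% in KO L, 17.5% in WT L, 19.1% in KO S and 8.2% in WT S, at IPD ratios of 1.64, 1.65, 1.68 and 1.71. Position 79605 of the unplaced scaffold JH584304 had 81.5% in KO L, 100% in WT L, 96.2% in KO S and 48.9% in WT S, at coverage of 40, 41, 51 and 36. The deepest of the 11, position 98662624 on chromosome 2, was called in KO L, WT L and WT S with fractions of 8.6%, 7.2% and 7.8% at coverage of 1735, 1848 and 1756.

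**Figure D4:**
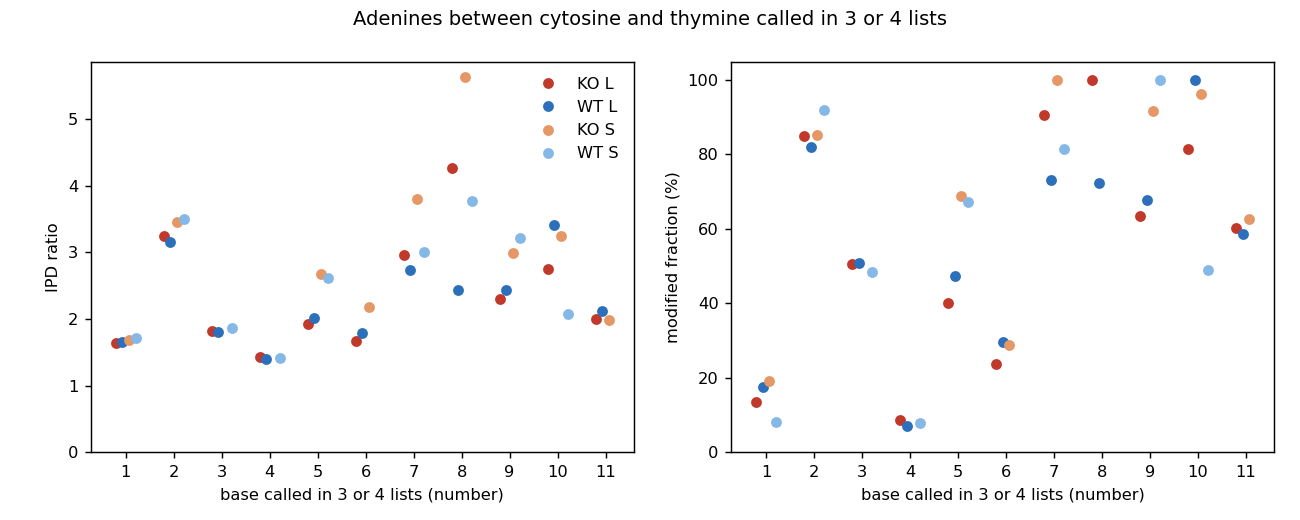
IPD ratio (left) and modified fraction in percent (right) of the 11 CAT bases called in 3 or 4 lists, 1 point per list in which the base was called. Base 2, on chromosome 14, has ratios of 3.16 to 3.50, and KO lies above WT at some bases and below it at others.

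Some CAT contexts were called at several bases with the same 41 letters. There were 16 such contexts at 54 bases, of 1652 distinct contexts. The commonest lay at 9 bases of JH584304 (the fourth context printed above), with 6 sites in KO L, 5 in WT L, 6 in KO S and 8 in WT S and a median IPD ratio of 3.41. Its opposite strand holds a CAT as well, with the called adenine 4 bases on, and that CAT was called too. It is printed at its JH584304 position next to the context most often repeated outside satellite-like DNA and another repeated one.
chrUn_JH584304:76317-76357, minus strand: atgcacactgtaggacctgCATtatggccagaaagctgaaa
chr5:38412636-38412676, minus strand: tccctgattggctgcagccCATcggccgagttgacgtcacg
chr4:22466648-22466688, plus strand: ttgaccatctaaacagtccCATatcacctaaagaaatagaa

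The opposite-strand context was called in the wild-type lists alone: 0 sites in KO L, 5 in WT L, 0 in KO S and 3 in WT S, at 6 bases. Its fractions in the wild-type lists were 16.9 to 47.1%, against a median of 86.05% in KO L, 73.1% in WT L, 100% in KO S and 98.4% in WT S on the other strand. The depth of this strand in the knockout cells is unknown, as bases without a call are not listed, and the pattern was picked after its values were seen. Over all CAT sites, 17 had a call on the other strand 4 bases on, 1 in KO L, 8 in WT L, 1 in KO S and 7 in WT S, and 16 of the 17 were satellite-like. This was 0.98% of CAT sites, against 0.35% of other sites. Of the 17, 12 belong to the pair of contexts just described, each pair counted from both strands, so the 17 are not separate from it.

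The chr5 context lay at 7 bases on chromosomes 4, 5, 7, 10 and 13, with 0 sites in KO L against 2 in WT L, and 3 in KO S against 2 in WT S. Its IPD ratios ran from 3.48 to 6.48 and its fractions from 88.7 to 100%. The chr4 context lay on chromosomes 1, 3, 4 and 6, with 1 site in KO L, 1 in WT L, 2 in KO S and 0 in WT S. All 4 of its sites had a fraction of 100%, at coverage of 11 to 15 and IPD ratios of 2.56 to 3.19. These copies were called at different bases in different lists, and none of them was called in 2 lists.

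No CATG was called on both strands in any list, from 58 sites in KO L, 78 in WT L, 54 in KO S and 136 in WT S. Over the 4 lists, 0 of 326 CATG sites allows a share of up to 0.92%, taken as 3 counts of the total and for counting error only. Among the other CAT sites, 0 of 1404 had a call at the adenine facing their T. Among the other called adenines before thymine this was so for 0 of 531 in KO L, 6 of 777 in WT L, 4 of 606 in KO S and 16 of 1444 in WT S. CAT sites also lay close to other calls less often than other sites did. Another call lay within 50 bases, on either strand, for 9.80% of CAT sites and 16.5% of other sites in KO L, 7.20% and 15.5% in WT L, 7.57% and 17.1% in KO S, and 10.1% and 21.7% in WT S. A CAT adenine has no adenine beside it on its strand, so part of this gap follows from the choice of sites. Other sites had such a neighbouring call at 0.80% on each side.

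The wider contexts were searched for adenine runs and CAT repeats. A run of 6 adenines lay in 1.96% of CAT contexts and 7.46% of other contexts in KO L, 1.49% and 8.82% in WT L, 1.89% and 5.54% in KO S, and 2.25% and 8.81% in WT S. A CAT adenine cannot lie in such a run, so part of this gap follows from the choice of sites. With runs counted only outside bases 19 to 23, the shares at other sites were 5.23% in KO L, 5.46% in WT L, 3.90% in KO S and 5.92% in WT S, and those at CAT sites were as before. The interval of the CAT share then held that of other sites in KO S (0.70 to 4.07%) and lay below it in the other lists. The letters CATCAT, searched on the strand of the call anywhere in the 41 bases, lay in 3.14% of CAT contexts in KO L, 1.49% in WT L, 2.84% in KO S and 3.18% in WT S. They lay in 0.82%, 0.84%, 0.75% and 0.53% of other contexts, which hold no CAT at the called base, so part of this gap too is set by that choice. The median share of G and C outside bases 19 to 23 was 44.4% at CAT sites and 41.7% at other sites in KO L, KO S and WT S, and 41.7% at both in WT L.

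CAT sites lay in genes about as often as other sites. On chromosomes 1 to 19, X and Y, 48.3% of CAT sites and 47.4% of other sites lay within a RefSeq gene in KO L, 48.4% and 50.6% in WT L, 46.8% and 47.9% in KO S, and 50.9% and 50.1% in WT S. The interval of the CAT share held the other share in each list. RefSeq promoter windows of 300 bases at gene starts held 0 CAT sites in KO L, 1 in WT L (0.26%), 1 in KO S (0.33%) and 2 in WT S (0.27%), against 0.57%, 0.24%, 0.35% and 0.33% of other sites in the same order, each within the interval of the CAT share. A total of 9 genes held 3 or more distinct CAT bases. Igk, the immunoglobulin kappa light chain locus on chromosome 6 (67555636 to 70726754, 3171 kb), held 4, with 1 in KO L and 3 in WT L. The immunoglobulin heavy chain locus Igh on chromosome 12 (2751 kb) held 3, with 1 in KO L and 2 in WT S. The T-cell receptor alpha locus Tcra on chromosome 14 (1796 kb) held 3, in WT S alone, with IPD ratios of 3.19 to 7.74. In Igk, calls of any context numbered 5 in KO L, 5 in WT L, 2 in KO S and 12 in WT S. They numbered 3, 1, 5 and 5 in Igh and 1, 2, 0 and 13 in Tcra, in the same order. Most calls of any context in Tcra thus lay in WT S too.

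The other 6 genes with 3 CAT bases were the lncRNA gene Gm39543 on chromosome X, and Fam117b, Cep85l, Unc13b, Ptprn2 and Cadm2. Unc13b encodes a protein of synaptic vesicle priming, Cadm2 a cell adhesion molecule and Ptprn2 a receptor-type phosphatase family member of secretory granules. In Gm39543, of 55.3 kb, KO S held 2 and WT S held 1, within 1944 bases of each other and with IPD ratios of 2.70 to 5.42. In Fam117b all 3 were in WT S, within 9636 bases, and calls of any context there numbered 5 in WT S and 1 in KO S. Cep85l held 1 each in KO L, WT L and WT S. Unc13b, Ptprn2 and Cadm2 each had 1 CAT base from WT L and 2 from the S part of wild-type cells. Calls of any context in KO L, WT L, KO S and WT S numbered 0, 1, 0 and 3 in Unc13b (219 kb). They numbered 1, 1, 1 and 6 in Ptprn2 (792 kb) and 1, 2, 1 and 3 in Cadm2 (966 kb). WT S was the longest list, and the counts were not scaled for this.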

How the data were processed

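Native H2A.X chromatin DNA of 8 samples was sequenced on single molecules, and 4 lists of called adenines were used, 1 for each genotype and DNA part with both replicates in it, per the labels. Coordinates are of mm10, the build in the submitters' processing notes. Which caller, aligner and filters were used, and how replicates were joined, is not given in the sources used here. The authors deposited for each call a score (20 or more) and an identification score, a coverage (a signal without normalization, 6 or more), an IPD ratio (observed over predicted inter-pulse duration) and, at coverage of 11 or more, a modified fraction with bounds. The scales of the scores are not stated. Bases without a call have no known depth.

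No filter was applied. Members and gene and site rules were chosen with earlier results of these data known. Shares have exact Clopper-Pearson intervals, differences of shares Newcombe intervals, medians order-statistic intervals and their differences intervals combined by squares, all at 95%; with 1 list a group no test was made. The code was tested on simulated data. Background was every other adenine of the contexts, bases 2 to 40 (bases 3 to 39 for 5 letters). The interval of a ratio over background is that of the called share divided by the background share. The background share was taken as exact, so these intervals are too narrow. Genes and promoter windows came from RefSeq tables of GRCm38.p6, which has the chromosome coordinates of mm10; 49943 genes were used from start to end. Named genes were the 10 with most CAT bases at 3 or more, of which 9 qualified; named sites were those called in most lists and those of highest score per list and leading context. The sites outside satellite-like contexts and the repeated contexts were picked after seeing the values. Python 3.11, pandas, scipy and statsmodels were used.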

Additional observations from a re-analysis of the deposited data

Results flagged for a closer look

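KO minus WT in S was set against KO minus WT in L for 28 measures of CAT sites, and the interval of the difference left out 0 for 2 of them, with no adjustment for their number. The share of CCATC among CAT sites was higher in KO S (8.52%, 27 sites) than in WT S (5.56%, 42 sites) and lower in KO L (3.14%, 8 sites) than in WT L (5.21%, 21 sites), and the difference of the differences was 5.03 points. The share of CAT sites with an identification score of 20 or more was lower in KO S (14.5%) than in WT S (18.8%) and higher in KO L (18.8%) than in WT L (14.9%), a difference of the differences of -8.23 points. The cause of either was not tested.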

How the results depend on the processing

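No paired analysis was possible because both replicates of a group are in 1 list, and for the same reason no replicate could be left out. Of 196 recomputed values, 145 stayed within the 95% interval of the reported value, 51 moved outside it and 0 changed the sign of a difference or ratio whose interval left out no change. The context was chosen on the CAT share over background, so values of it above 1 support nothing. Its interval held 1 in KO L and KO S at coverage of 25 or more and in no other alternative. That of CATG over background held 1 in 10 of 12 alternatives in KO L, 3 in WT L, 2 in KO S and 1 of those run in WT S. The interval of the fraction difference lay above 0 in 32 of 32 (alternatives chosen after seeing the data). KO minus WT of the CAT share was above 0 once in 18, in S on the plus strand. Cause was not tested for any moved value.

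Moved values of the CAT share over background, in the order KO L, WT L, KO S, WT S, were 1.21, 1.499, 1.01 and 1.42 at coverage of 25 or more, and 1.39, 1.76, 1.49 and 1.80 with adenines of both strands as background. At an identification score of 20 or more they were 2.52 (KO L), 2.63 (WT L) and 2.66 (WT S). The minus strand gave 1.44 in KO L and 1.497 in KO S, the plus strand 1.95 in KO S. Background within 10 bases gave 2.30 in WT L, and background 3 or more bases away 1.97 in WT S. CATG over background was 0.12 in KO L, 0.17 in WT L, and in WT S 0.43, at coverage of 25 or more, and 0.62, 0.53, 0.42 and 0.56 at an identification score of 20 or more.

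KO minus WT of the CAT share moved to -3.54 points in L at a score of 30 or more and to -2.89 in S at an identification score of 20 or more. In L its interval held 0 at coverage of 25 or more (-1.86), an identification score of 20 or more (-1.16) and on the plus strand (-1.25). KO minus WT of the median IPD ratio of CAT sites moved to -0.13 in L and -0.245 in S at a score of 30 or more, to -0.13 in L at coverage of 25 or more and to 0.365 in S at an identification score of 20 or more.

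The median IPD ratio of CAT minus other sites at a score of 30 or more was 0.445 in KO L, 0.575 in WT L, 0.68 in KO S and 0.895 in WT S. At an identification score of 20 or more it was 0.50 in KO L, 0.32 in WT L and 0.46 in KO S, and at coverage of 25 or more 0.135 in WT L, 0.24 in KO S and 0.00 in WT S. In WT L it was -0.16 without dense windows and -0.15 without satellite-like contexts, with intervals below 0. In WT S, where the reported interval lies above 0, it held 0 in 6 of 8 alternatives. The fraction difference was 39.7 points in KO L, 44.7 in WT L, 41.2 in KO S and 35.6 in WT S at an identification score of 20 or more. At a score of 30 or more it was 35.9 in WT L, 21.3 in KO S and 22.3 in WT S, at coverage of 25 or more 16.5 in WT L, and in KO S 21.3 without dense windows and 21.4 without satellite-like contexts. Few CAT sites had coverage of 25 or more (20 to 83 a list), which limits those values.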
